A study of Mus musculus with 12 samples.

Results

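The arrays described here measured how RAW264.7 cells, an established mouse macrophage line, responded to lipopolysaccharide (LPS) after transfection with a control siRNA. They were the 3 arrays of cells given a non-specific scrambled siRNA for 24 h and then E. coli LPS at 1 µg/ml for 4 h, and the 3 arrays of cells given the same siRNA without LPS. These 6 of the series' 12 arrays were chosen by their titles, and no measured value was used. The other 6 arrays held cells given an siRNA to lincRNA-Tnfaip3, with or without the same LPS. They entered the shared fit, so they add to the spread behind each SE and p-value, and they entered the choice of probes. Otherwise they appear below only as values beside these. All cells of the series were transfected, so no untransfected cells stood behind either group. Whether the replicates of a group were separate cultures is not stated in the labels, and the spread behind each p-value may therefore be technical.

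LPS, a component of the outer membrane of Gram-negative bacteria, is recognised on macrophages by Tlr4 with Ly96 and Cd14. Through Myd88 the receptor activates NF-kB and MAP kinases, which switch on cytokine, chemokine and feedback genes, and through Ticam1 it activates Irf3 and the gene of interferon beta. Secreted interferon beta then signals through its own receptor and a transcription factor complex that includes Irf9, which binds the interferon-stimulated response element (ISRE) and raises antiviral genes. Proteins made early in this sequence, among them Nfkbia, Tnfaip3 and Socs1, limit it.

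All 12 macrophage markers, among them Csf1r, Adgre1 and Cd68, were well above background on all 6 arrays, and 0 of them passed limma's test for LPS (5 had an unadjusted p under 0.05). Their signal, summed in units of each array's 75th percentile, was 526 to 608 without LPS and 620 to 700 with it. Of 25 markers of other cell types on the array, 7 were well above background on 0 arrays (Cd3g, Ms4a1, Cpa3, Pdgfra, Epcam, Krt18 and Cdh1). On all 6 arrays 9 were (Cd3e, Cd79a, S100a8, Elane, Tpsb2, Zbtb46, Dcn, Pecam1 and Kdr). Kdr read 3.31 to 4.05 and the macrophage marker Adgre1 2.50 to 3.24 (log2 signal relative to the array's 75th percentile). The summed signal of the 25 markers was 15.2 to 18.5 without LPS and 19.8 to 27.6 with it. Of the 14 tested, 0 passed (4 at an unadjusted p under 0.05), and the part of these markers in the results was not tested. Control arrays 1 and 2 lay alone on slide 1, while control array 3 and the LPS arrays lay on slide 2. Control arrays 1 and 2 had 27198 and 29452 probes well above background and the other 4 arrays 33545 to 36391. Control array 3 correlated with the LPS arrays at 0.977 to 0.990 and with control arrays 1 and 2 at 0.979 and 0.983, over all features. Each change is therefore given against all 3 control arrays and, where the call differs, also with the slide as a block in the fit. The blocked estimate is the mean of the LPS arrays minus control array 3, and is called the same-slide change.

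Of 23816 features tested, 1252 (5.26%) passed, 769 (3.23%) of them higher with LPS and 483 (2.03%) lower, where passing means an adjusted p under 0.05 in limma's test over all features. Changes are log2 differences between group means with the standard error (SE) of that fit, and n = 3 arrays per group throughout. At least 2-fold differences were uneven: 512 features (2.15%) were higher and 52 (0.218%) lower by that much. The median change was 1.34 over the higher and -0.64 over the lower features, against 0.04 over all features. In every feature that passed, the 2 groups' arrays did not overlap, which also held for 14.6% of all features upward and 16.1% downward.

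Calls depended on the slides. Against control array 3 alone 768 of the 769 higher and 483 of the 483 lower features had the same sign. This does not test the direction, because array 3 is 1 of the control arrays and the groups did not overlap in these features. At least 50% of the change was kept against array 3 in 725 and 479 of them, though array 3 also enters the full change. With the slide as a block 197 features passed higher (0.827% of those tested) and 34 lower (0.143%), and these included 196 of the 769 and 25 of the 483. On slide 2 alone, where the control group is array 3, 44 features passed higher (0.185%) and 5 lower (0.021%). Leaving out control array 1 or 2 gave 571 or 533 features that passed in place of 1252, and leaving out LPS array 2 or 3 gave 572 or 518. Without control array 3 the count was 3849, and there slide and treatment cannot be told apart. Scaling each array to its median in place of its 75th percentile moved the median change of all features from 0.04 to -0.215 and gave 465 higher and 967 lower features, so that 32.47% of calls were higher in place of 61.42%. A list median whose sign turned under that scaling is given below with its value there, as are other small medians.

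**Figure D1:**
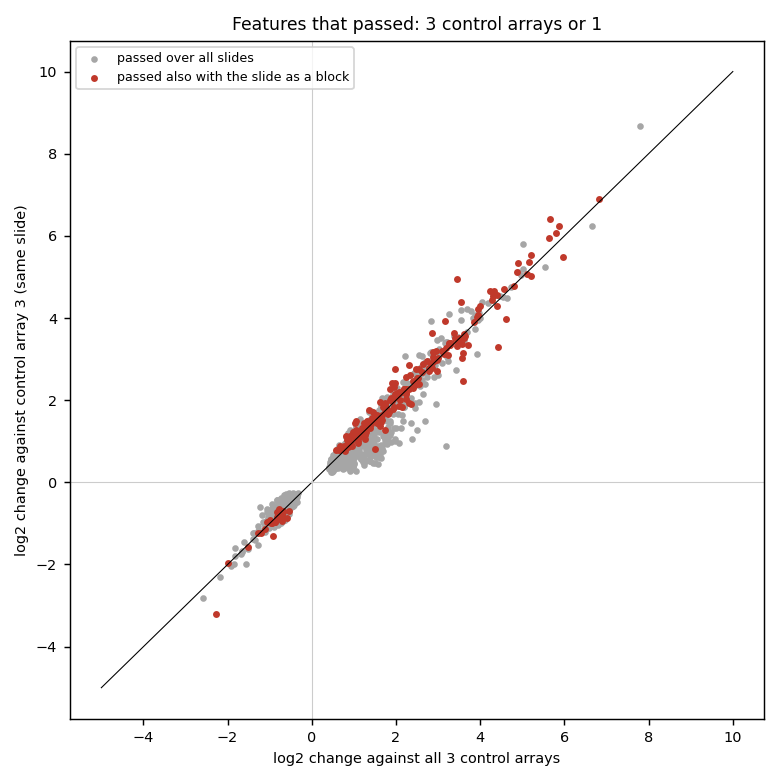
Log2 change of each feature that passed, against all 3 control arrays (horizontal) and against control array 3, which lay on the same slide as the LPS arrays (vertical). Points lie along the line of equality, and the LPS arrays and control array 3 enter both axes. Red points, 196 higher and 25 lower, also passed with the slide as a block.

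Genes of the interferon response and of cytokine signalling led the rise. The 10 genes with the highest fitted changes were the antiviral GTPase genes Mx1 and Mx2, Gbp2 and Gbp2b of the guanylate-binding proteins, Cmpk2, Ifi209 and Ifih1, beside the cytokine genes Il6 and Il33 and the feedback inhibitor gene Cish. Mx1, Il33 and Ifi209 were not well above background on any control array, so their place in this order is not measured: at their lower bounds they would stand at 5, 45 and 28. Cish and Gbp2b were well above background on 1 control array each and Gbp2 on 2, and their changes rest on a signal near background without LPS. By list, the highest median changes belonged to guanylate-binding proteins and immunity-related GTPases (3.93), the Ifi200 cluster (3.04, or 2.65 with its 2 dim genes at their bound), antiviral effectors (2.35), cytokine ligands (1.45, or 1.40 with 3 at their bound) and chemokine ligands (1.37). The lowest list median was that of sterol and fatty acid synthesis (-0.33).

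**Figure D2:**
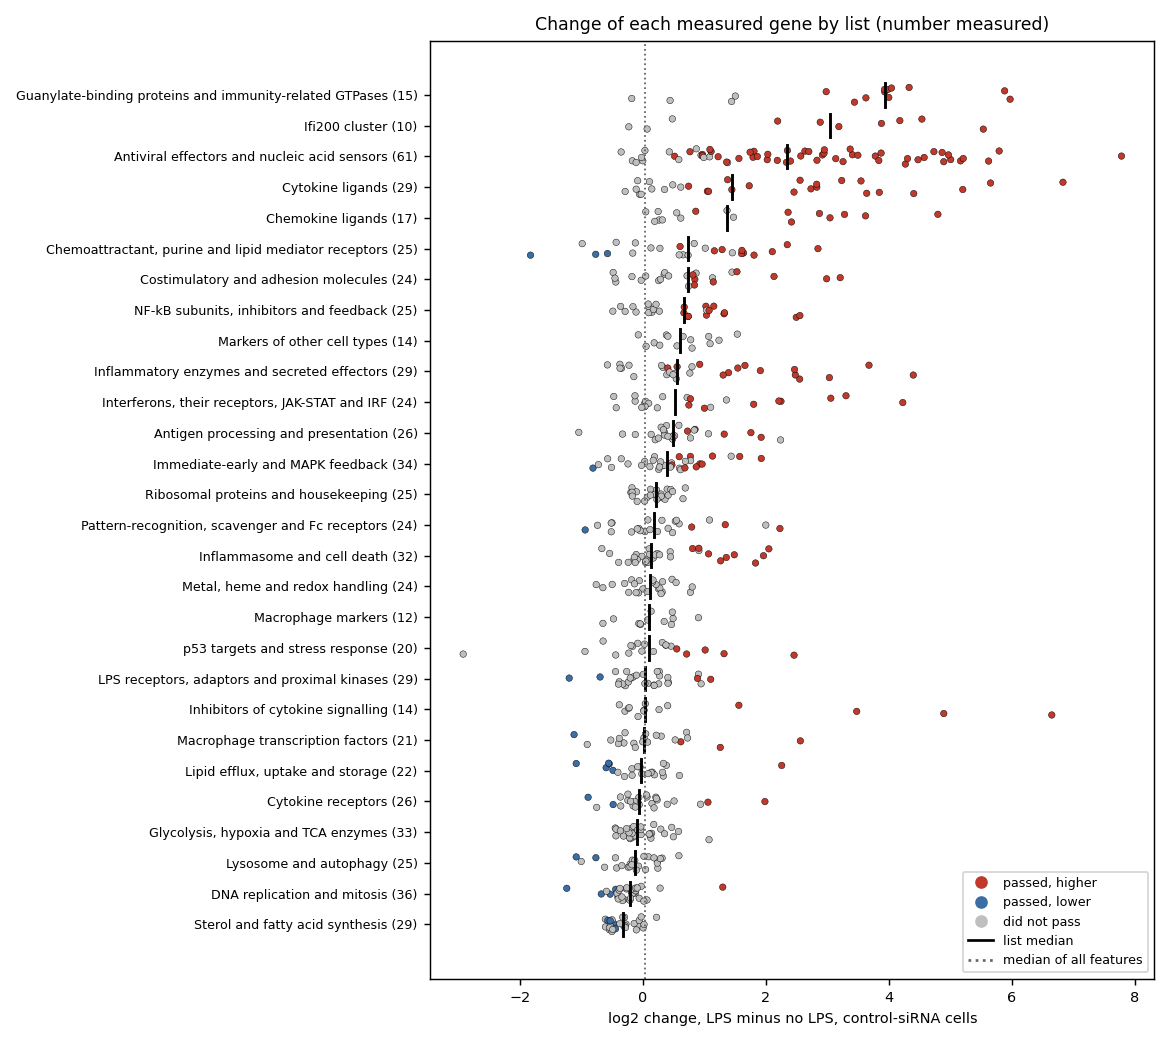
Log2 change with LPS of each measured gene, 1 row per gene list with the number measured; red and blue points passed as higher or lower, grey points did not, the black bar is the list median and the dotted line the median of all features (0.04). Interferon-induced lists lie farthest to the right, at medians of 3.93, 3.04 and 2.35, while the glycolysis list holds no passing gene.

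In each of the antiviral, guanylate-binding, cytokine, chemokine and NF-kB lists, the rising gene with the largest change and a promoter entry was picked. Promoters are shown for the 3 picked genes whose windows held an ISRE-like or kappaB-like motif. The windows were RefSeq's 250 bases before to 50 bases after each start on GRCm38.p6. They were searched on both strands for GAAANNGAAA (ISRE-like) and GGGANNNNCC (kappaB-like); the 2 motifs were counted apart, and overlapping matches of 1 motif were counted as separate matches. The 250 bases before the start are printed, with matches in capitals.
Gbp2: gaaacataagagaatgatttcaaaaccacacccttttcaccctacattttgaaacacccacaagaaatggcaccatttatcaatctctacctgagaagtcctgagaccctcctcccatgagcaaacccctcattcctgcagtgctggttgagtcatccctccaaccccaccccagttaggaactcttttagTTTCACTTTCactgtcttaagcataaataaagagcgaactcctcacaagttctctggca
Il6: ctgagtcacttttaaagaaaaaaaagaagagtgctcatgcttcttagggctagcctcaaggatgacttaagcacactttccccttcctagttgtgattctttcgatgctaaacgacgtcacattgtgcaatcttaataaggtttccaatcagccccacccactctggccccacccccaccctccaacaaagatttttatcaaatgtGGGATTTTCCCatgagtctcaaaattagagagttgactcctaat
Cxcl10: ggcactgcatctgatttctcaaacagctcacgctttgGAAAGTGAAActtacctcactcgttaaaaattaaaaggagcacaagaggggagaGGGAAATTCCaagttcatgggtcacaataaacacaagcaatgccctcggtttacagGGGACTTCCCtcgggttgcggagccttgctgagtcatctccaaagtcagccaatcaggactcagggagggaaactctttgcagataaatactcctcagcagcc
The Gbp2 stretch (chr3:142620413-142620662, forward strand) held 1 ISRE-like match 59 bases before the start, and its window held 1 kappaB-like match after the start. The Il6 stretch (chr5:30012864-30013113, forward strand) held 2 overlapping kappaB-like matches 44 and 43 bases before the start. The Cxcl10 stretch (chr5:92348890-92349139, reverse strand) held 1 ISRE-like match at 213 bases and kappaB-like matches at 159 and 103 bases before the start. The windows of Cmpk2 and Tnfaip2, picked by the same rule as the highest rising gene of their list with a promoter entry, held neither motif.

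The ISRE-like motif lay in the windows of 3.99% of all 27025 genes in the promoter table and in 3.82% of those of the 11856 tested genes with an entry. It lay in 53 of 269 windows (19.7%) of genes that rose at least 2-fold, and in 0 of 37 of genes that fell that far. Over all 354 genes with an entry that passed as lower, the share was 3.11%, near that of tested genes. The share was 90.0% among the 10 rising guanylate-binding and immunity-related GTPase genes with an entry, 44.7% among 38 antiviral genes, 7.69% among 13 cytokine genes and 0 of 10 among NF-kB genes. The kappaB-like motif is shorter in fixed letters and lay in 22.9% of all windows and 28.1% of tested genes' windows. It was in 34.6% of windows of genes that rose at least 2-fold and in 16.2% (6 of 37) of those that fell that far. Over all 354 genes with an entry that passed as lower, its share was 29.4%, near that of tested genes. Among rising genes it was in 6 of 10 windows for the NF-kB list and in 46.2% for cytokines, 28.9% for antiviral effectors and 20.0% for the guanylate-binding and immunity-related GTPases. These are counts of letters in short windows, and no binding was measured.

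**Figure D3:**
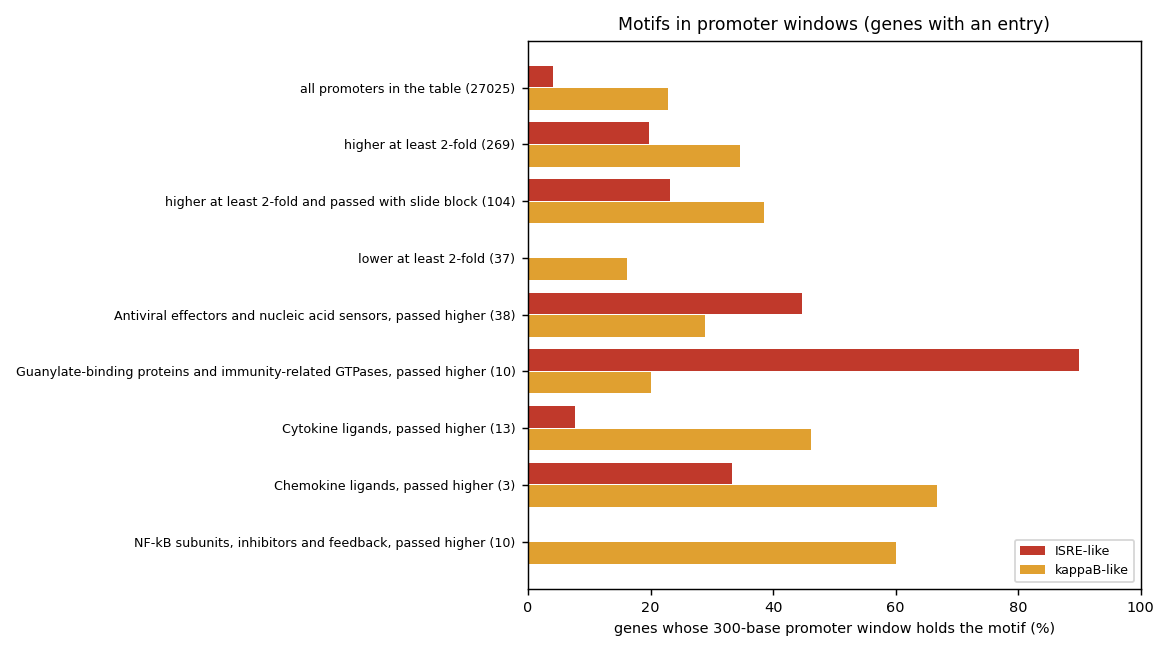
Share of promoter windows (percent of genes with an entry, number in parentheses) that hold the ISRE-like motif (red) or the kappaB-like motif (orange), for all promoters and for sets of genes that passed. The ISRE-like share is highest in the guanylate-binding list (90.0%) and at 0 in the NF-kB list, where 6 of 10 windows hold the kappaB-like motif.

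Of 29 measured genes of the LPS receptor complex, its adaptors and proximal kinases 2 rose and 2 fell. That is 6.90% each way, against 3.23% and 2.03% of all features. The list median was 0.03 (-0.22 under median scaling). Tlr4, the LPS receptor, read 1.51, 1.38 and 1.27 on the control arrays and 0.57, 0.88 and 0.61 on the LPS arrays (log2 signal relative to the array's 75th percentile). All 3 LPS arrays were below all control arrays, and Tlr4 fell by 0.70 ± 0.12 (SE, adjusted p = 0.0113; same-slide change -0.58, adjusted p = 0.262). Tlr13, which senses bacterial ribosomal RNA, fell further, by 1.20 ± 0.16 (adjusted p = 0.0022), from 3.72, 3.47 and 3.63 to 2.31, 2.50 and 2.41, and passed with the slide as a block (-1.23 and 0.0423). Irak3, a kinase-like inhibitor of the pathway, rose by 0.89 ± 0.09 (adjusted p = 0.000548) and also passed with the block. Ikbke, a kinase that acts on Irf3, rose by 1.101 ± 0.21 (adjusted p = 0.0173; same-slide change 1.34, adjusted p = 0.113). Cd14, the co-receptor, read 6.67, 6.59 and 6.62 without LPS and 7.11, 7.63 and 7.84 with it; its change of 0.90 ± 0.26 did not pass (adjusted p = 0.075, and 0.0433 without LPS array 1).

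NF-kB inhibitors and feedback genes rose, with 12 of 25 measured genes higher, 0 lower and a median of 0.67; 3 of the list passed with the slide as a block, where the median was 0.29. Tnfaip2, a TNF-induced gene, had the largest change (2.55 ± 0.19, adjusted p = 9.66e-05), from 3.34, 3.23 and 3.52 to 6.38, 5.71 and 5.66. Nfkbia, which holds NF-kB in the cytoplasm, rose from 7.58, 7.51 and 7.46 to 8.44, 8.08 and 8.23, a change of 0.73 ± 0.13 (adjusted p = 0.0115; adjusted p = 0.20 with the block). Tnfaip3, the ubiquitin-editing inhibitor A20, rose from 3.13, 2.93 and 2.84 to 4.59, 4.17 and 4.12, a change of 1.33 ± 0.20 (adjusted p = 0.00502; same-slide change 1.45, adjusted p = 0.102). In each of these 3 genes LPS array 1 read highest. Nfkbie, another inhibitor of the same family, rose by 1.32 ± 0.28 (adjusted p = 0.0278) and did not pass with the block (adjusted p = 0.373). The subunit gene Rel was dim: it was well above background on 1 control array, and its control values of -6.13, -5.44 and -3.96 spanned more than its LPS values of -2.59, -2.82 and -2.65. Its change was 2.49 ± 0.47 (adjusted p = 0.016) but 1.28 against control array 3 (adjusted p = 0.12), and 0.29 in the lincRNA-siRNA cells (adjusted p = 0.921).

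Among immediate-early and MAP kinase feedback genes 10 of 34 rose, 1 fell, and 6 passed as higher with the block (median 0.40; 0.14 under median scaling). Atf3, a stress-induced repressor, read 2.11, 1.71 and 2.10 without LPS and 3.90, 3.82 and 3.96 with it, a rise of 1.92 ± 0.13 (adjusted p = 5.32e-05). Dusp5, a phosphatase of MAP kinases, rose by 1.57 ± 0.14 (adjusted p = 0.000235), Maff, a small Maf factor, by 1.13 ± 0.10 (adjusted p = 0.000156), and Zfp36, which promotes decay of cytokine mRNAs, by 0.96 ± 0.09 (adjusted p = 0.000273). All 4 passed with the block. Fos, an early AP-1 subunit, went the other way, from 3.61, 3.39 and 3.57 to 2.95, 2.62 and 2.56, and fell by 0.81 ± 0.16 (adjusted p = 0.0199; adjusted p = 0.225 with the block). For Egr1 the change was 0.19 (95% interval -0.16 to 0.53, adjusted p = 0.473; -0.07 under median scaling) and for Dusp1 0.45 (95% interval -0.19 to 1.08, adjusted p = 0.346), so neither passed after 4 h.

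Cytokine ligands rose in 19 of 29 measured genes, 0 fell, and 14 passed as higher with the slide as a block. Il6, the main inducer of the acute-phase response, whose promoter is printed above, read -3.45, -3.23 and -3.43 without LPS and 3.24, 3.59 and 3.56 with it. The rise was 6.83 ± 0.34 (adjusted p = 1.01e-05), or 6.90 on the same slide, and the arrays of each group lay close together. Il1b, the pyrogenic cytokine cut by caspase-1, rose from 2.02, 1.87 and 1.85 to 5.10, 4.52 and 4.59 (2.83 ± 0.17, adjusted p = 3.01e-05). Tnf, already bright without LPS at 6.54, 6.45 and 6.56, rose to 7.92, 7.86 and 7.91 (1.38 ± 0.10, adjusted p = 6.35e-05). Il10, which restrains inflammation, rose by 1.45 ± 0.13 (adjusted p = 0.000223). Each of these 4 also passed with the block, and Il6, Il1b and Tnf passed on slide 2 alone.

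The myeloid growth factor genes rose with them. Csf2 read -4.84, -4.99 and -4.63 without LPS, well above background on 1 of the 3 arrays, and -0.39, 0.77 and 0.77 with it (5.20 ± 0.44, adjusted p = 0.000149). Csf3, the granulocyte growth factor gene, rose by 4.40 ± 0.48 (adjusted p = 0.000644). Il33, an alarmin of the IL-1 family, was not well above background on any control array and rose at least 13.3-fold (fitted change 5.65, adjusted p = 0.000145). These 3 passed with the block. The cytokine genes Il12a and Il12b, singled out after their values were seen as textbook LPS targets, were not well above background on any of the 6 arrays and were not tested. A further 4 listed cytokine genes were not tested either.

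**Figure D4:**
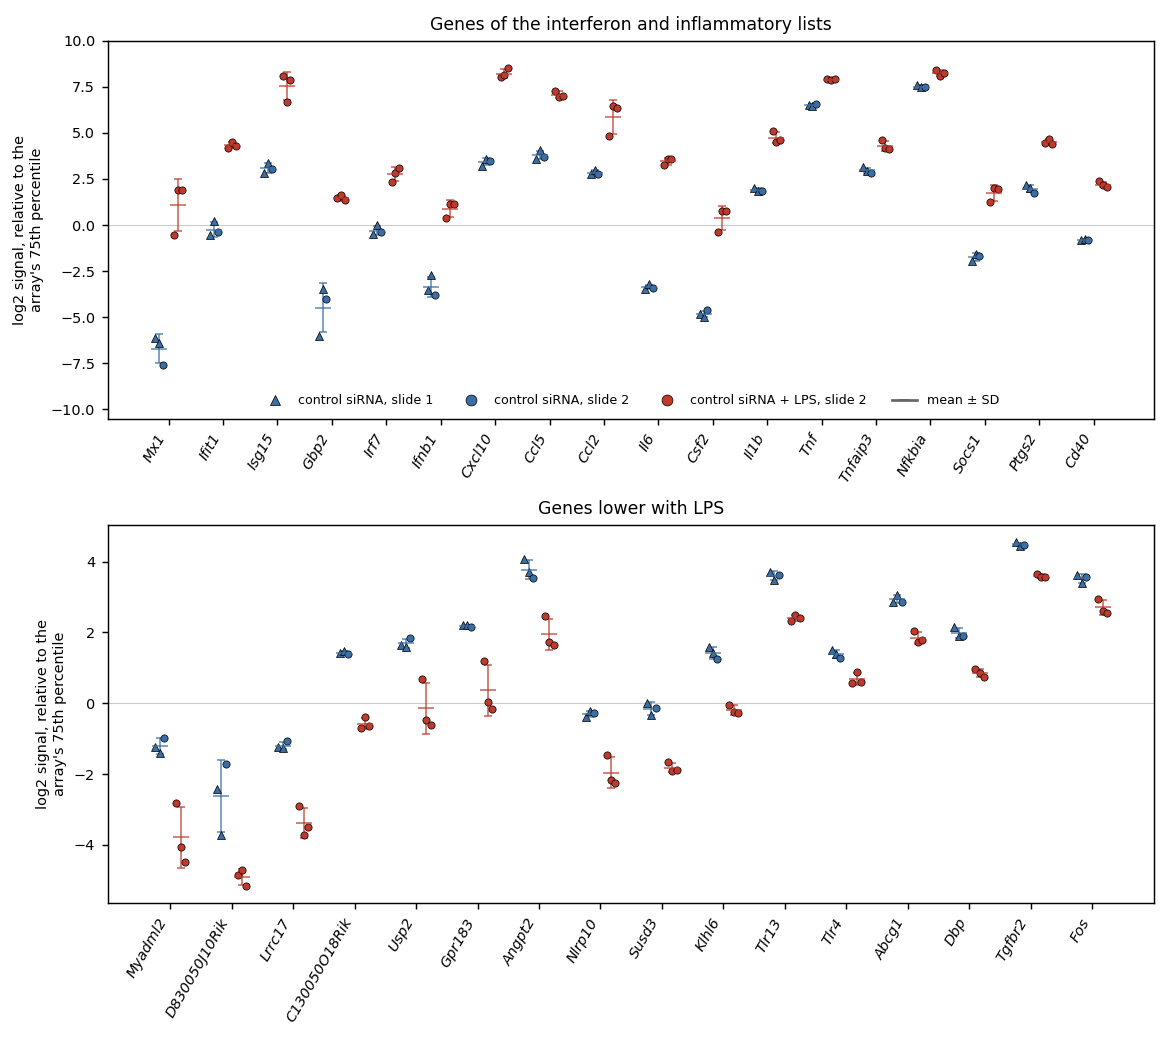
Log2 signal relative to the array's 75th percentile on each array, for genes of the interferon and inflammatory lists (top) and genes lower with LPS (bottom); triangles lay on slide 1, circles on slide 2, bars are mean ± SD of 3 arrays. Groups do not overlap in any gene shown; LPS arrays of Il6 stand at 3.24 to 3.59 above control arrays at -3.45 to -3.23.

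Chemokine ligands, which draw leukocytes to a site, rose in 8 of 17 measured genes, and 0 fell (median 1.37, and 0.76 on the same slide; 4 passed as higher with the block). Cxcl10, which attracts T cells and is induced by interferons and NF-kB, rose from 3.22, 3.60 and 3.45 to 8.01, 8.15 and 8.50 (4.80 ± 0.24, adjusted p = 1.01e-05). Ccl5, another T-cell attractant, rose from 3.60, 4.05 and 3.71 to 7.30, 6.92 and 6.99 (3.28 ± 0.18, adjusted p = 1.41e-05). Both passed with the block and on slide 2 alone. The neutrophil attractant Cxcl2 rose by 3.62 ± 0.35 (adjusted p = 0.000341) and passed with the block. The monocyte attractant Ccl2 read 2.74, 3.00 and 2.76 without LPS and 4.83, 6.46 and 6.35 with it. LPS array 1 stood well below the others, and the rise of 3.04 ± 0.58 (adjusted p = 0.0169) did not pass with the block (3.12, adjusted p = 0.304). A further 11 chemokine genes, Cxcl1 among them (named after its value was seen), were not bright enough to be tested.

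Interferon, JAK-STAT and IRF genes rose in 9 of 24 measured, with 0 lower, and 3 passed as higher with the block. The list median was 0.52, or 0.37 on the same slide and 0.26 under median scaling. Ifnb1, the gene of interferon beta, read -3.51, -2.73 and -3.78 without LPS and 0.36, 1.12 and 1.16 with it, a rise of 4.23 ± 0.44 (adjusted p = 0.000479; same-slide change 4.67, adjusted p = 0.0222). Irf1, a transcription factor of the interferon response, rose from 1.17, 1.27 and 1.11 to 4.09, 4.69 and 4.68 (3.30 ± 0.26, adjusted p = 1e-04), while another probe gave 1.55. Ifnb1 and Irf1 passed with the block. Irf7, which amplifies interferon alpha genes, rose by 3.06 ± 0.72 and passed narrowly (adjusted p = 0.0403, and 0.483 with the block). Its LPS arrays at 2.35, 2.84 and 3.08 lay far above its control arrays at -0.51, 0.00 and -0.38. The SD of these arrays was 0.26 without LPS and 0.37 with it, and the SE also takes in the spread of the lincRNA-siRNA arrays.

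Of 14 inhibitors of cytokine signalling 4 rose and 0 fell, and the list median of 0.03 was -0.23 under median scaling. Cish, induced by STAT5, rose from -5.57, -5.71 and -5.02, well above background on 1 of these 3 arrays, to 0.02, 1.86 and 1.77 (6.65 ± 0.83, adjusted p = 0.00144; adjusted p = 0.102 with the block). Socs1, which blocks JAK kinases, rose from -1.95, -1.57 and -1.68 to 1.26, 2.00 and 1.97 (3.48 ± 0.32, adjusted p = 0.000251). Socs3, which restrains signalling by IL-6 receptors, rose by 1.56 ± 0.16 (adjusted p = 0.000505). Both Socs genes passed with the block. Usp18, which removes ISG15 and damps interferon receptor signalling, rose by 4.89 ± 0.79 (adjusted p = 0.00691) and did not pass with it (5.12, adjusted p = 0.179). The SD of Usp18 was 0.39 without LPS and 0.40 with it, and here too the SE takes in the lincRNA-siRNA arrays.

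Antiviral effectors and nucleic acid sensors formed the largest rising list, with 48 of 61 measured genes higher and 0 lower; 20 passed as higher with the block, and the median was 2.35, or 2.17 on the same slide. Mx1, a GTPase that traps viral nucleocapsids, was not well above background on any control array (-6.14, -6.38 and -7.59) and read -0.56, 1.91 and 1.90 with LPS. It rose at least 57.3-fold (adjusted p = 0.00282), with adjusted p = 0.0731 with the block. Its relative Mx2 rose from -1.65, -1.06 and -1.75 to 3.81, 4.56 and 4.54 (5.79 ± 0.57, adjusted p = 0.00036). The pyrimidine kinase gene Cmpk2 rose by 5.62 ± 0.55 (adjusted p = 0.000324), and Ifih1, the sensor of long double-stranded RNA, by 5.21 ± 0.52 (adjusted p = 0.000395). Ifit1, which binds RNA that lacks a normal cap, rose from -0.55, 0.19 and -0.37 to 4.19, 4.53 and 4.28 (4.57 ± 0.31, adjusted p = 4.73e-05) and passed even on slide 2 alone (adjusted p = 0.0306). Mx2, Cmpk2 and Ifih1 passed with the block. Isg15, a ubiquitin-like modifier, read 2.83, 3.38 and 3.02 without LPS and 8.08, 6.67 and 7.90 with it (4.47 ± 0.61, adjusted p = 0.00267; adjusted p = 0.115 with the block), and its other probe gave 5.25.

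Guanylate-binding proteins and immunity-related GTPases, which attack the vacuoles of intracellular pathogens, rose in 11 of 15 measured genes with 0 lower, and 8 passed with the block. Gbp2 rose from -6.00, -3.48 and -4.01 to 1.45, 1.63 and 1.34 (5.97 ± 0.58, adjusted p = 0.000324), with the control arrays far more spread than the LPS arrays. Gbp2b, well above background on 1 control array, rose by 5.88 ± 0.58 (adjusted p = 0.00035; its other probe gave 6.96) and Irgm2 by 4.33 ± 0.47 (adjusted p = 0.000669), and all 3 passed with the block. Igtp rose by 4.04 ± 0.53 (adjusted p = 0.00216; adjusted p = 0.0672 with the block). These genes lie in families of close relatives, so a probe may also bind a neighbour's RNA.

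The Ifi200 cluster of interferon-induced DNA-binding proteins rose in 7 of 10 measured genes, with 0 lower; 2 passed with the block. Ifi209 read -5.89, -6.39 and -5.69 without LPS, not well above background on any of them, and -1.87, 0.17 and 0.34 with it, a rise of at least 19.3-fold (adjusted p = 0.00359; its probes gave changes of 2.40 to 5.54). Ifi203 rose by 4.54 ± 0.69 (adjusted p = 0.00472, probes 1.72 to 5.61), Ifi202b by 4.18 ± 0.64 (adjusted p = 0.00505) and Ifi211 at least 5.31-fold (adjusted p = 0.00278). None of these 4 passed with the block, where adjusted p was 0.0853 to 0.17. Their LPS array 1 lay lowest of the 3 LPS arrays each time, and these genes too are close relatives.

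Of 26 measured genes of antigen processing and presentation 5 rose and 0 fell (median 0.48, or 0.23 under median scaling), and none passed with the block. In 20 of them the LPS arrays lay above all control arrays, against 14.6% of all features. Tap1, a peptide transporter for MHC class I, rose from -1.35, -1.38 and -1.72 to 0.17, 0.51 and 0.63 (1.92 ± 0.27, adjusted p = 0.00304; adjusted p = 0.0731 with the block). Nlrc5, the class I transactivator, rose by 1.75 ± 0.35 (adjusted p = 0.019), the immunoproteasome subunit gene Psmb10 by 1.32 ± 0.25 (adjusted p = 0.0145) and the loading chaperone gene Tapbp by 0.85 ± 0.14 (adjusted p = 0.00705). For Psmb10 control array 3 read 5.00 against 4.39 and 4.58 on slide 1, and the same-slide change was 0.98 (adjusted p = 0.42).

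Of 24 costimulatory and adhesion genes 8 rose and 0 fell (median 0.73; 2 passed with the block). Cd40, the receptor through which T cells activate macrophages, read -0.80, -0.74 and -0.84 without LPS and 2.37, 2.16 and 2.06 with it, with a rise of 2.99 ± 0.15 (adjusted p = 1.01e-05). The arrays within each group lay close together, and it passed with the block and on slide 2 alone (adjusted p = 0.0163). Icosl, a T-cell costimulatory ligand, rose by 2.13 ± 0.20 (adjusted p = 0.000255) and passed with the block. The activation marker Cd69 rose at least 4.26-fold (adjusted p = 0.00187), since no control array was well above background, and did not pass with the block (adjusted p = 0.0966). Slamf8 rose by 1.53 ± 0.34 (adjusted p = 0.0331), but its same-slide change was 0.62 (adjusted p = 0.621).

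Receptors that sense chemoattractants, purines and lipid mediators moved both ways: 10 of 25 rose and 3 fell, and 6 passed as higher and 0 as lower with the block. Ptger2, a receptor of prostaglandin E2, rose at least 1.96-fold (adjusted p = 0.00517), Ccrl2, a chemerin-binding receptor, by 2.35 ± 0.20 (adjusted p = 0.000176), and C5ar1, the receptor of complement C5a, by 2.10 ± 0.23 (adjusted p = 0.000731). All 3 passed with the block. Gpr183, a receptor of oxysterols, fell from 2.21, 2.21 and 2.15 to 1.20, 0.05 and -0.16 (a change of -1.83 ± 0.35, adjusted p = 0.0162; adjusted p = 0.335 with the block). Its control arrays nearly coincided, while its LPS array 1 lay well above the other two.

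Of 26 cytokine receptor genes 2 rose and 2 fell, with a median of -0.07 (0.02 on the same slide and -0.32 under median scaling). Tnfrsf1b, a TNF receptor, rose by 1.98 ± 0.26 (adjusted p = 0.00203) and passed with the block. Il1rl1, the receptor of IL-33, rose by 1.06 ± 0.19 (adjusted p = 0.0109; adjusted p = 0.204 with the block). The receptors of TGF-beta fell: Tgfbr2 by 0.89 ± 0.11 (adjusted p = 0.00151), from 4.54, 4.44 and 4.47 to 3.66, 3.55 and 3.56, and Tgfbr1 by 0.49 ± 0.11 (adjusted p = 0.0393). With the block neither passed (adjusted p = 0.0715 and 0.329), and the other Tgfbr2 probe gave -0.32.

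Of 24 pattern-recognition, scavenger and Fc receptor genes 3 rose and 1 fell (median 0.17; -0.08 under median scaling). Clec4e, which binds mycobacterial glycolipids, rose from 3.97, 3.80 and 3.96 to 6.10, 6.20 and 6.11 (2.23 ± 0.16, adjusted p = 6.35e-05) and passed with the block. Lilrb4a, an inhibitory receptor, rose by 1.34 ± 0.16 (adjusted p = 0.00135; adjusted p = 0.0672 with the block), and the scavenger receptor gene Msr1 by 0.79 ± 0.19 (adjusted p = 0.0403; adjusted p = 0.225 with the block). Trem1, which amplifies inflammatory signals, fell by 0.94 ± 0.17 (adjusted p = 0.0115; adjusted p = 0.348 with the block).

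Inflammatory enzymes and secreted effectors rose in 14 of 29 measured genes with 0 lower, and 5 passed with the block. Hdc, which makes histamine, had the lowest adjusted p of the genes named here: it read -2.10, -1.83 and -1.81 without LPS and 2.83, 2.17 and 2.45 with it (4.40 ± 0.20, adjusted p = 8.9e-06). Ptgs2, the inducible cyclooxygenase, rose from 2.16, 2.01 and 1.76 to 4.46, 4.69 and 4.42 (2.55 ± 0.18, adjusted p = 5.87e-05). Both passed with the block and on slide 2 alone. Complement factor B (Cfb) rose by 3.68 ± 0.55 (adjusted p = 0.00448) and tissue factor (F3), which starts coagulation, by 3.03 ± 0.43 (adjusted p = 0.0032); neither passed with the block (adjusted p = 0.0793 and 0.0966). Nos2, the inducible nitric oxide synthase, rose by 1.91 ± 0.24 (adjusted p = 0.00174; adjusted p = 0.0854 with the block), and Acod1, which makes itaconate, rose from 7.31, 7.25 and 7.23 to 9.01, 8.61 and 8.79 (1.54 ± 0.19, adjusted p = 0.00147; adjusted p = 0.0731 with the block).

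Among inflammasome and cell death genes 9 of 32 rose and 0 fell, and 8 of the list passed as higher with the block, while the median was only 0.14 (-0.12 under median scaling). Nod2, a sensor of bacterial cell wall fragments, rose from -0.81, -1.01 and -1.07 to 1.09, 1.04 and 1.12 (2.05 ± 0.11, adjusted p = 1.41e-05). Nlrp3, the inflammasome sensor, rose from -0.69, -0.66 and -0.54 to 1.14, 1.19 and 1.27 (1.83 ± 0.13, adjusted p = 8.21e-05). Both passed on slide 2 alone, and in both the LPS arrays nearly coincided. The death receptor gene Fas rose by 1.96 ± 0.19 (adjusted p = 0.000309) and Bcl2l11, a pro-apoptotic BCL-2 family gene, by 1.49 ± 0.12 (adjusted p = 0.000142), and both passed with the block. Of 20 p53 targets and stress genes 5 rose, led by 3 growth-arrest genes, and 0 fell (median 0.10, or -0.16 under median scaling). The lowest change of the list, -2.93, was larger in size than any rise in it but did not pass. Gadd45a rose by 2.46 ± 0.19 (adjusted p = 1e-04) and Gadd45b, which NF-kB induces, by 1.32 ± 0.13 (adjusted p = 0.000324), and these passed with the block; Gadd45g rose by 1.01 ± 0.21 (adjusted p = 0.0255; adjusted p = 0.32 with the block), and Ppp1r15a, which reverses the stress block on translation, by 0.71 ± 0.11 (adjusted p = 0.00681; adjusted p = 0.214 with the block).

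The genes that fell did so by less. C130050O18Rik had the most even fall: it read 1.42, 1.47 and 1.38 without LPS and -0.69, -0.40 and -0.64 with it, a change of -2.00 ± 0.13 (adjusted p = 3.16e-05; same-slide change -1.96, adjusted p = 0.00712). D830050J10Rik also passed with the block, with values of -2.44, -3.71 and -1.71 without LPS and -4.85, -4.70 and -5.16 with it (-2.29 ± 0.42, adjusted p = 0.013; same-slide change -3.20, adjusted p = 0.0226). In the lincRNA-siRNA cells its LPS change was 0.28 (adjusted p = 0.91). The other 8 of the 10 lowest genes did not pass with the block: Myadml2 (-2.59), Lrrc17 (-2.18), the deubiquitinase gene Usp2 (-1.84), Gpr183, the angiopoietin gene Angpt2 (-1.83), Nlrp10 (-1.67), Susd3 (-1.66) and Klhl6 (-1.61), with adjusted p of 0.000808 to 0.0313 over all slides. Another Susd3 probe gave 0.13.

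Of 29 sterol and fatty acid synthesis genes 4 fell and 0 rose, the median was -0.33 (-0.58 under median scaling), and none passed with the block, where the median was -0.29. Sqle, an early enzyme of the sterol branch, changed by -0.57 ± 0.14 (adjusted p = 0.0498), the desaturase gene Scd2 by -0.53 ± 0.12 (adjusted p = 0.0345) and Lss, which closes the sterol rings, by -0.47 ± 0.12 (adjusted p = 0.0446). In 15 of the 29 the LPS arrays lay below all control arrays, and in 0 above, against 16.1% and 14.6% of all features. Of 22 genes of lipid efflux, uptake and storage 5 fell and 1 rose, and none passed with the block. This list's median was -0.03 (-0.29 under median scaling). The LPS arrays lay above all control arrays in 4 of its genes and below them in 6, against 14.6% and 16.1% of all features. Abcg1, a cholesterol exporter, fell from 2.86, 3.07 and 2.87 to 2.04, 1.74 and 1.77 (-1.09 ± 0.12, adjusted p = 0.00071; adjusted p = 0.054 with the block). Lipa, the lysosomal acid lipase gene, changed by -0.60 ± 0.12 (adjusted p = 0.0235; same-slide change -0.35) and Angptl4, a lipoprotein lipase inhibitor gene, by -0.56 ± 0.11 (adjusted p = 0.016). Fabp4, a fatty acid carrier, rose from -0.92, -0.73 and -1.06 to 0.25, 1.92 and 1.89 (2.26 ± 0.56, adjusted p = 0.048; adjusted p = 0.484 with the block), and its LPS array 1 stood apart.

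Of 36 DNA replication and mitosis genes 5 fell and 1 rose, with a median of -0.21 (-0.46 under median scaling), and none passed with the block. In 22 of them the LPS arrays lay below all control arrays, against 16.1% of all features. Ccnd2, a cyclin of the G1 phase, rose by 1.30 ± 0.18 (adjusted p = 0.0027; adjusted p = 0.0904 with the block). Aurkb, a mitotic kinase, fell by 1.24 ± 0.30 (adjusted p = 0.0427), but control array 3 at -3.45 lay below control arrays 1 and 2 at -2.60 and -2.38, and the same-slide change was -0.60 (adjusted p = 0.413). E2f2 fell by 0.68 ± 0.15 (adjusted p = 0.0289), and Cdk2 changed by -0.53 ± 0.11 (adjusted p = 0.0264; same-slide change -0.32).

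Of 25 lysosome and autophagy genes 2 fell and 0 rose (median -0.13; -0.39 under median scaling). They were Tfeb, the transcription factor of lysosome genes (-1.09 ± 0.24, adjusted p = 0.0325), and the autophagosome gene Map1lc3b (-0.77 ± 0.16, adjusted p = 0.0259), and neither passed with the block. Of 21 macrophage transcription factor and clock genes 3 rose and 1 fell (median 0.02; -0.24 under median scaling), and none passed with the block. Id3, an inhibitor of helix-loop-helix factors, rose by 2.56 ± 0.39 (adjusted p = 0.00511), Ets2 by 1.26 ± 0.20 (adjusted p = 0.00695) and Cebpd by 0.61 ± 0.15 (adjusted p = 0.0489). Dbp, an output gene of the circadian clock, fell from 2.15, 1.90 and 1.91 to 0.98, 0.87 and 0.74 (-1.12 ± 0.12, adjusted p = 0.000754; adjusted p = 0.0566 with the block).

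No gene passed among 33 of glycolysis, hypoxia and the TCA cycle (median -0.10, or -0.15 with the block and -0.35 under median scaling), 24 of metal, heme and redox handling (median 0.11; -0.14 under median scaling) or 25 ribosomal and housekeeping genes in limma's test. At an unadjusted p under 0.05 the numbers were 7, 11 and 5. The largest glycolysis change was that of hexokinase gene Hk1, 1.07 (95% interval 0.23 to 1.92, adjusted p = 0.132), and its control arrays were divided: arrays 1 and 2 read 6.25 and 6.57, and array 3 read 8.05 among LPS values of 7.92 to 8.20. The same-slide change was -0.02. Of the 3 Hk1 probes, 2 gave changes of the opposite sign to the 1.07, the lowest at -0.22. Slc7a11, a cystine transporter, changed by 0.80 (95% interval 0.34 to 1.26, adjusted p = 0.0575). The ribosomal protein gene Rpl8 was divided in the same way, with 8.20 and 8.49 on slide 1, 9.40 on control array 3 and 9.23 to 9.57 with LPS. The median of the ribosomal and housekeeping list was 0.21 over all slides, -0.05 on the same slide and -0.05 under median scaling. Among markers of other cell types the largest change was that of the fibroblast gene Dcn (1.53, 95% interval 0.31 to 2.76, adjusted p = 0.138), and the list median was 0.60, or 0.28 on the same slide and 0.35 under median scaling.

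The array also carried probes for lincRNA regions, given by mm9 coordinates. Of 3535 tested, 71 (2.01%) passed as higher and 13 (0.368%) as lower, against 3.75% and 2.89% of 15097 gene symbols. Probe sequences are shown for the 2 regions among the 3 highest and 3 lowest that also passed with the slide as a block, since their probes define what was measured.
Higher: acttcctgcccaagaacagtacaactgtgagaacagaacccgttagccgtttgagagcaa
Lower: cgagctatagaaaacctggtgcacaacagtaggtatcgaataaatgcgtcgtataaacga
The higher region (chr2:128249388-128250301, forward strand, probe at 128250182 to 128250241) read -6.13, -6.19 and -4.48 without LPS and -1.10, -1.21 and -1.22 with it. At least 1 of its probes was well above background on 2 control arrays. The region rose by 4.42 ± 0.37 (adjusted p = 0.000146, and same-slide change 3.30, adjusted p = 0.000384). Its rise starts from a dim signal: on control arrays 1 and 2 Mx1, not well above background there, read -6.14 and -6.38. The nearest named probe on the array, 108084 bases away, was that of the long noncoding RNA Morrbid, which did not pass (0.38, adjusted p = 0.486). The lower region (chr7:16633756-16634410, forward strand, probe at 16634351 to 16634410) fell from 0.42, 0.29 and 0.38 to -0.88, -0.62 and -0.73 (-1.11 ± 0.09, adjusted p = 0.000153; same-slide change -1.125, adjusted p = 0.0133), and changed by -0.998 in the lincRNA-siRNA cells (adjusted p = 0.000479).

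The region with the highest fitted change (chr7:111526943-111545093, reverse strand) read -6.12, -4.60 and -5.14 without LPS, well above background on 1 of these arrays. It rose by 4.64 ± 1.045 (adjusted p = 0.0335; adjusted p = 0.493 with the block) and overlapped the position of a Trim30c probe, whose change was 1.39 (adjusted p = 0.178). A region on the reverse strand of chromosome 1 (chr1:85304494-85305390) rose by 3.61 ± 0.49 (adjusted p = 0.00248; adjusted p = 0.131 with the block), 50988 bases from a C130026I21Rik probe that rose by 1.49 (adjusted p = 0.000396). Of the other regions that fell, chr1:137503023-137625604 changed by -0.88 ± 0.18 (adjusted p = 0.0234) and chr13:94182877-94203935 by -0.85 ± 0.105 (adjusted p = 0.00143), and neither passed with the block. The latter lay 5023 bases from a probe of Jmy, which changed by -0.55 (adjusted p = 0.0255).

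The 3 LPS arrays, all on slide 2, differed among themselves along the same families. Array 1 was the lowest of the 3 in 46 of 61 antiviral genes, 8 of 10 Ifi200 genes and 20 of 26 antigen presentation genes, against 32.1% of all features. It was also the lowest in 10 of 14 markers of other cell types, by a median of -0.30 against arrays 2 and 3, and their part in these differences was not tested. It was the highest in 19 of 25 NF-kB genes, 24 of 29 sterol genes and 20 of 29 genes of the LPS receptor list, against 39.8% of all features. The median of array 1 minus the mean of arrays 2 and 3 was -0.32 over antiviral genes, -0.63 over the Ifi200 cluster, 0.24 over NF-kB genes and 0.28 over sterol genes, and 0.03 over all features. Arrays 2 and 3 differed by a median of 0.00 over antiviral genes. Mx1 was the widest case named here, at -0.56 on array 1 and 1.91 and 1.90 on the others. Leaving out array 1 gave 1328 features that passed, against 1252.

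**Figure D5:**
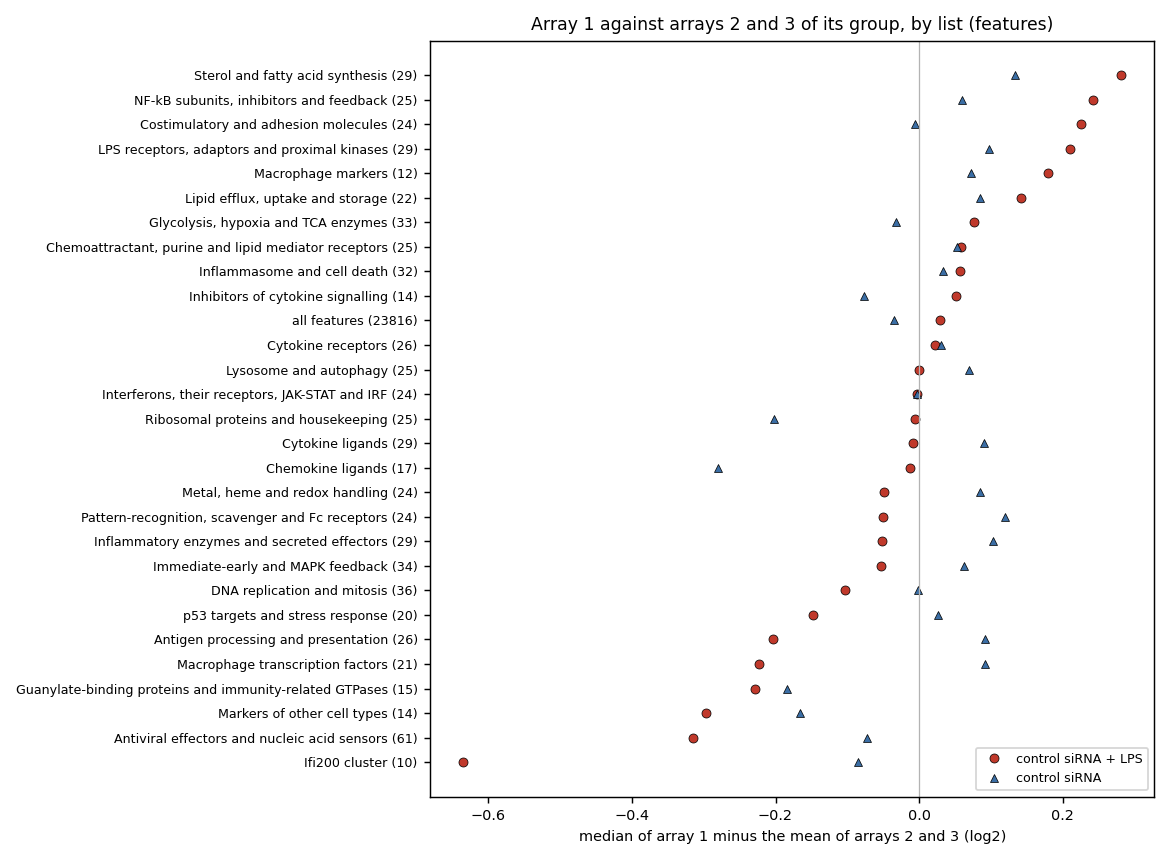
Median, over the genes of each list, of array 1 minus the mean of arrays 2 and 3 of its group (log2), for the LPS arrays (red) and the control arrays (blue); the number of features stands in parentheses. Among LPS arrays the Ifi200 and antiviral lists lie lowest (-0.63 and -0.32) and sterol and NF-kB lists highest (0.28 and 0.24).

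The same LPS contrast in lincRNA-siRNA cells shares no array with the one described here. Its 3 untreated arrays and its LPS array 1 lay on slide 2, and its LPS arrays 2 and 3 alone on slide 3, so the slide is partly confounded with LPS there too, and its part in the counts that follow was not tested. In that contrast 352 features (1.48%) passed as higher and 80 (0.336%) as lower. Of the 769 higher features 748 had the same sign there and 337 passed, and of the 483 lower features 478 and 73. The median change of the 769 was 0.84 there against 1.34 here, where they were chosen for passing. Limma's test of the difference between the 2 LPS responses passed for 0 features, and 900 had an unadjusted p under 0.05. By list, 26 of 61 antiviral genes, 15 of 29 cytokine ligands, 11 of 15 guanylate-binding and immunity-related GTPases and 9 of 32 inflammasome and cell death genes passed as higher there, at medians of 1.52, 1.37, 2.86 and 0.19. Cxcl10 (4.75), Nod2 (2.16), Tnf (1.37) and Hdc (3.93) also passed there, at the changes in parentheses.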

How the data were processed

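Total RNA was labelled with Cy3 and hybridised to 1-colour Agilent arrays. Spot intensity values were deposited as Agilent Feature Extraction output (version 10.7.1.1, per the file headers), background-subtracted and detrended within each array, with probe positions on mm9, per the file headers. The authors also deposited a value table, read here as log2 because its columns matched their own arrays with slopes of 0.968 to 1.03 on the log2 signal. Its columns share a median of 4.76, its normalization is not stated, and it was used as an alternative.

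Control spots and spots with an outlier flag (104 to 258 per array over the 12 arrays) were left out, and 0 spots were saturated. Spots of a probe were averaged, and each array's 75th percentile was subtracted on the log2 scale. Kept probes (33157 of 55681) were those flagged well above background by the scanner software on every array of 1 or more of the 4 groups. Of a feature's kept probes, the brightest on average was used. A feature counted as well above background on an array where any of its probes was. Names came from the files, updated by accession (26680 probes), symbol (2537) or synonym (474) through RefSeq's GRCm38.p6 gene table; 9739 probes kept the file's name and 16251 target lincRNA regions.

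A model with 4 group means over the 12 arrays was fitted in limma 3.58.1 (R 4.3.3, 8 residual degrees of freedom), and p-values were adjusted by Benjamini-Hochberg over all 23816 features with a threshold of 0.05. Where no control array was well above background, the rise is given as "at least", the LPS mean against the mean over control arrays of whichever is higher, the probe's signal or the dimmest signal well above background. The fit was tested on simulated data. Members and lists were chosen with earlier results of these data known. Named genes were the 10 highest and 10 lowest changes that passed, the 4 largest that passed in each list (and the largest that did not, where under 2 passed), 30 genes named in any case, and the 3 highest and 3 lowest lincRNA regions; some genes under this rule are not reported here. Alternatives changed the slide, the arrays in the fit, background correction, scaling, the filter on dim probes, the probe rule, the variance model and single arrays. Array number limits the precision.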

Additional observations from a re-analysis of the deposited data

How the results depend on the processing

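With the slide as a block 231 features passed in place of 1252 (197 higher, 34 lower, and 182 higher and 12 lower at least 2-fold), and on slide 2 alone 49 did (44 higher and 5 lower, all at least 2-fold). Fitting only the 6 arrays gave 655 (495 higher, 160 lower), and leaving out 1 array gave 518 to 3849 in all, 413 to 2860 higher, 105 to 989 lower, 338 to 1798 higher at least 2-fold and 27 to 124 lower at least 2-fold. The highest counts came without control array 3, apart from the 124, which came without LPS array 1. Median scaling gave 465 higher and 967 lower features (209 lower at least 2-fold). Without a filter on dim probes 715 passed, of which 186 were lower. Normexp background correction gave 317 higher and 15 lower features at least 2-fold. The share of calls that were higher, 61.42%, became 85.28% with the slide block, 89.80% on slide 2, 75.57% with 6 arrays, 73.99% without the filter and 48.40% with probes well above background on all 12 arrays.

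Arrays were not treated as paired by replicate number, and whether they were paired was not settled. Correlations of deviations from the group means were -0.07, 0.29 and 0.32 between arrays of the same number. Between arrays of different numbers they ran from -0.40 to 0.19. With the replicate block 1602 features passed. Of 121 named features, 66 lost their call with the slide block and 96 on slide 2, where the control group is 1 array and its spread is assumed to be that of the other groups. Leaving out 1 control array lost 33 (array 1), 33 (array 2) and 4 (array 3) of these calls, and leaving out 1 LPS array lost 7, 29 and 33. The values that changed sign had not passed: Hk1 to -0.019 and Rpl8 to -0.017 with the slide block and on slide 2, and Egr1 to -0.068 under median scaling. Every other named feature kept its direction under the settings run. For features that passed, the slide block and slide 2 do not test the direction, as said above. Dim control signals limit Cish, Gbp2b, Csf2, Rel, Slamf8, the lincRNA region with the highest change, the rising chr2 lincRNA region and genes given as a bound.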
